A study of Mus musculus with 2 samples.

Results

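In the nucleoplasm of bone marrow-derived macrophages, 55 expressed genes had at least 75% of their transcript abundance assigned to annotated retained-intron transcripts in each of 2 libraries. A retained-intron transcript, as the annotation uses the term, is a transcript of a coding locus that holds sequence which the coding transcripts splice out. Members needed a protein-coding transcript and a gene TPM of at least 10 in both libraries, where TPM is an abundance corrected for transcript length and scaled to a fixed total per library. Symbols starting Srsf, Hnrnp, Clk, Rpl or Rps were left out, which removed Rpl5, Rps16 and Srsf11. The 55 genes were therefore taken from 3110 expressed genes that have an annotated retained-intron transcript, within 4332 genes with a protein-coding transcript at that TPM and 55536 annotated genes. The genes were chosen by their measured retained-intron shares and TPM, so these and all values taken from the same reads are a description, with no test.

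Both libraries came from 1 group, so no comparison between conditions was made. The cells were primary macrophages grown from marrow of C57BL/6J mice. They received Lipid A, the part of lipopolysaccharide that activates Toll-like receptor 4, at 100 ng/ml for 12 h, were then washed and kept for 12 h, and were collected at 0 min of a further dose. Ribosomal RNA was removed from total RNA of the nucleoplasmic fraction, and the labels name replicates 1 and 2 as biological replicates from separate biosamples of this strain. The labels give 1 µg as the starting amount of replicate 1 and 500 ng as that of replicate 2, so amount and replicate cannot be told apart. Sex and age of the animals were not collected, and the labels do not say whether marrow was pooled.

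The depth, as summed expected counts of annotated genes, was 22907877 for replicate 1 and 18612405 for replicate 2, of which the 55 genes held 0.708% and 0.833%. The libraries differed by more than counting noise, with a chi-square of 50.8 per degree of freedom over 21055 genes, and were treated as separate samples. All 10 macrophage markers reached a TPM of 10 in both libraries, while all 4 markers of each of T cells, B cells, neutrophils, erythroid, stromal and epithelial cells were under 1 in both. No member gene was one of these markers. Strand use in the counting is not given in the sources used here, so it is not known whether reads of overlapping genes on opposite strands were kept apart.

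Introns are removed by the spliceosome, which recognises the donor site at the intron's start and the acceptor site at its end, nearly always beginning with GT and ending with AG. Some introns stay in otherwise finished transcripts, which are then often held in the nucleus. Such retained or detained introns are known for splicing factors, for RNA-binding proteins and for genes of blood cells. In a coding region they often bring a stop codon into the reading frame, and a transcript exported with one can be destroyed by nonsense-mediated decay. Nuclear RNA also holds pre-mRNA whose splicing is not finished, and short-read quantification assigns those reads to whichever annotated model contains the intron.

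Whole introns of 6 members are shown because they are short enough to print and lie entirely within the retained-intron model of highest TPM of their gene, called the leading model here. A 197 nt intron of Thoc1 meets the same conditions and is not shown. Each runs 5′ to 3′ on the gene's strand, taken from the GENCODE transcript sequences of mouse release 21 (GRCm38), with 10 exon bases on either side. Capitals mark the 2 bases at each end of the intron and the first stop codon in the reading frame of the coding transcript, where there is one.
Pirb intron 6 of 14 (chr7:3716891-3717117, minus strand): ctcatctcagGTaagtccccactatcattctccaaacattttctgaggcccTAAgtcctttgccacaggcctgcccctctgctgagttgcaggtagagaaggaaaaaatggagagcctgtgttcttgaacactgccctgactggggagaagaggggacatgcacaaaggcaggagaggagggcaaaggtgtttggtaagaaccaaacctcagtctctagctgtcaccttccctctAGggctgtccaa
Psmb8 intron 3 of 6 (chr17:34199381-34199570, plus strand): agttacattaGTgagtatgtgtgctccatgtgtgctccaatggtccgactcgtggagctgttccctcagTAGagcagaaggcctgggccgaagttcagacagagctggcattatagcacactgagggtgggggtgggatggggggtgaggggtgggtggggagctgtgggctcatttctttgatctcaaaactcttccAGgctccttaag
Tap2 intron 6 of 11 (chr17:34212068-34212229, plus strand): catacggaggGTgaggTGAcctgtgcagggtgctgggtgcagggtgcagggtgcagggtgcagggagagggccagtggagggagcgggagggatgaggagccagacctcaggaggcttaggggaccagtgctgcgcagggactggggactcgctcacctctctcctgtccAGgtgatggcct
Ncl intron 10 of 13 (chr1:86352320-86352509, minus strand): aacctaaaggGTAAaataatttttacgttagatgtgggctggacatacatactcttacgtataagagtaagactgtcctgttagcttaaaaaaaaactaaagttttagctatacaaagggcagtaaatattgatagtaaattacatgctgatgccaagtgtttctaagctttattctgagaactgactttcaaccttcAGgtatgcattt
Phykpl intron 5 of 12 (chr11:51592094-51592168, plus strand): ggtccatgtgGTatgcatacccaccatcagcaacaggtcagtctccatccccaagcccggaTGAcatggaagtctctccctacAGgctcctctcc
Usp21 intron 11 of 12 (chr1:171282612-171282694, minus strand): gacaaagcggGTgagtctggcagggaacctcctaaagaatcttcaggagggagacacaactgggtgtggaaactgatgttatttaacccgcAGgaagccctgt
The introns of Pirb, Psmb8, Tap2, Ncl and Phykpl each bring a stop codon into the frame, that of Tap2 beginning at base 7 and that of Ncl at base 2 of the intron. The Usp21 intron, 83 nt long, holds none in frame, and its length is not divisible by 3. In the leading models of Ncl, Phykpl and Usp21 the printed intron is not the longest stretch outside exons of coding transcripts. That stretch is 492 nt in Ncl, 2869 nt in Phykpl and 104 nt in Usp21, in the latter 2 at an end of the model.

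The rule took 58 of the 3110 genes before symbols were left out, which is 1.86%. Over the 55 members the median share was 82.8% in replicate 1 and 85.9% in replicate 2, or 84.3% ± 2.19 (SD, n = 2). The other 3055 expressed genes had a median of 29.8% ± 1.05. The share was higher in replicate 2 in 45 of 55 members and in 1698 of the 3055 other genes. The libraries lay within 10 percentage points of each other in 53 members, Miip and Il11ra1 being the exceptions, and in 2649 of the 3055 other genes. In 10 members the share was at least 90% in both libraries, as in 1 of the 3055 other genes. Any gene at that share meets the share threshold, so the contrast follows from the rule.

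**Figure D1:**
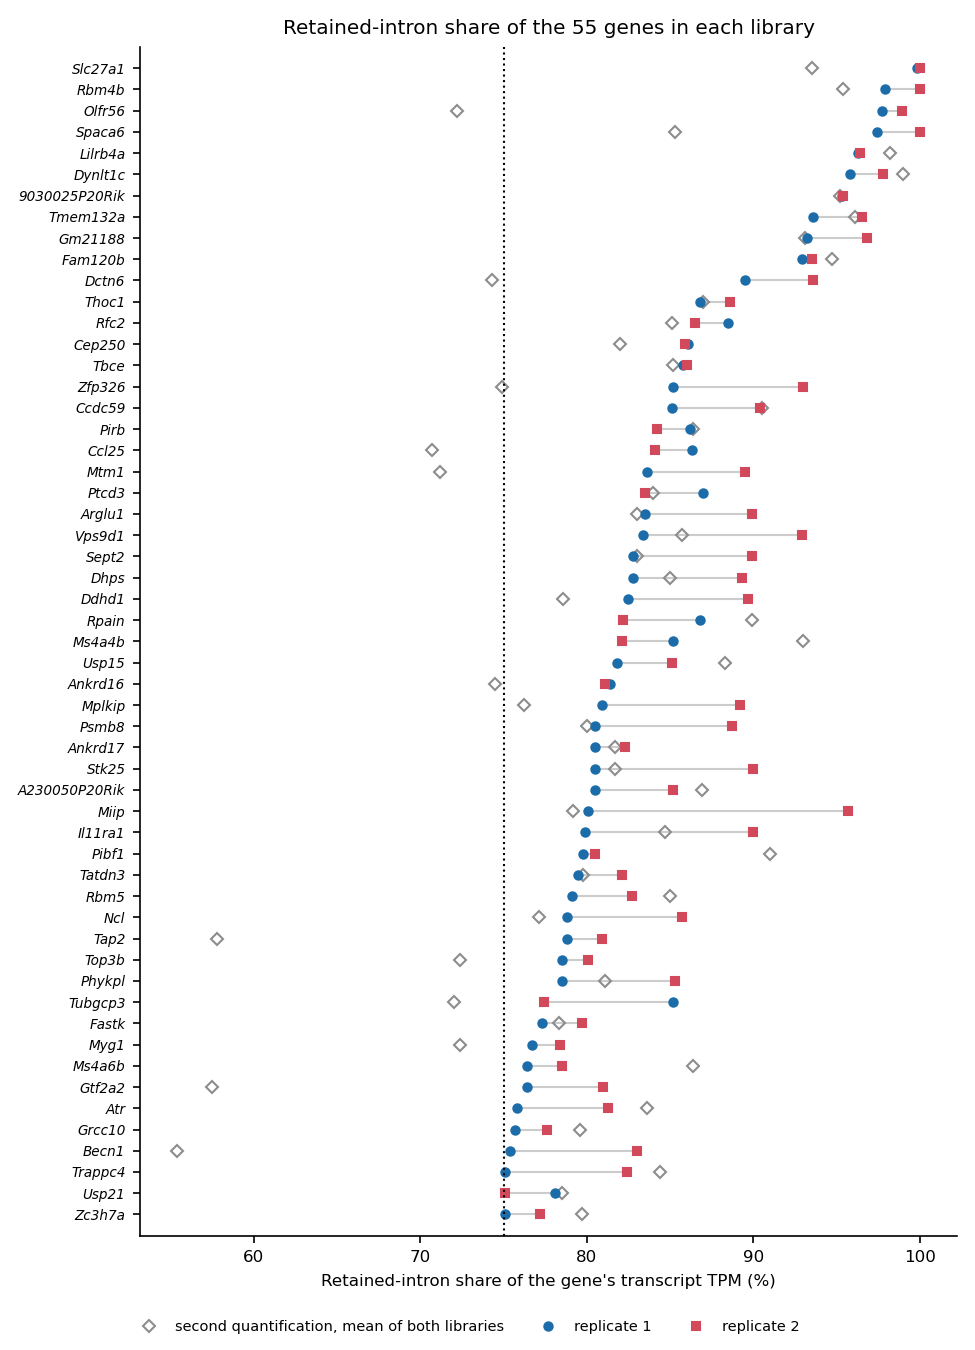
Share of each gene's transcript TPM assigned to retained-intron transcripts (x axis, percent) for the 55 genes (rows), in replicate 1 (circles) and replicate 2 (squares), with the mean of both libraries in the second quantification as open diamonds and the threshold of 75% as a dotted line. By the lower of its 2 libraries Slc27a1 is highest, Usp21, Zc3h7a and Trappc4 are lowest at 75.1%, and the open diamonds of Becn1, Gtf2a2 and Tap2 lie farthest to the left.

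Gene TPM of the members was close to that of the other expressed genes, with medians of 23.0 and 22.9 in replicates 1 and 2 against 23.8 and 22.9. Retained-intron transcripts summed to a median TPM of 20.2 ± 0.495 per member against 6.89 ± 0.0566 in the other genes (SD, n = 2). Protein-coding transcripts summed to a median TPM of 2.81 ± 0.339 per member against 13.8 ± 0.537. The split follows from the rule and is given as its size only. Protein-coding transcripts were listed at a TPM of 1 or more in both libraries in 43 members, against 3037 of the 3055 other genes. They were at 10 or more in both in 5 members, against 1876, and under 1 in both in 6, against 5.

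**Figure D2:**
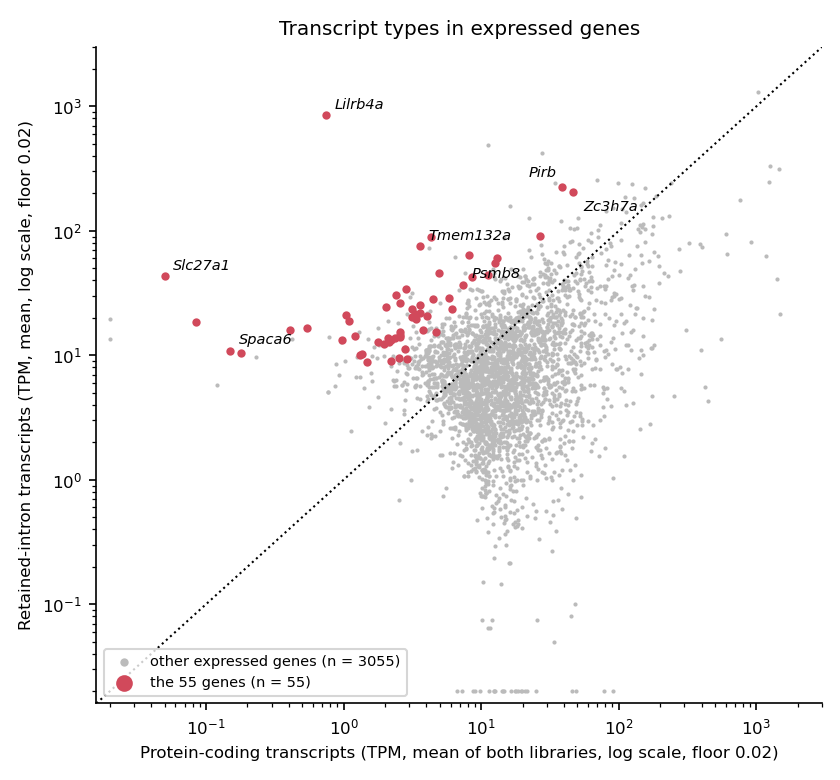
Summed TPM of retained-intron transcripts (y axis) against summed TPM of protein-coding transcripts (x axis) per expressed gene, as means of both libraries on log scales with values under 0.02 drawn at 0.02 and the diagonal dotted. The 55 genes (red) lie above the diagonal, and Lilrb4a, Pirb and Zc3h7a have the highest retained-intron TPM among them.

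Immune receptors and antigen-processing genes stood among the most abundant of the 55, with Lilrb4a highest by mean gene TPM and Pirb next after Zc3h7a. Lilrb4a (ENSMUSG00000112148.1, mm10 chromosome 10, 51490956 to 51496611), an inhibitory immunoglobulin-like receptor of myeloid cells, had a gene TPM of 634 in replicate 1 and 1126 in replicate 2. Its retained-intron share was 96.3% and 96.4%, so the libraries differed in level and hardly in share. Its protein-coding transcripts were listed at a TPM of 0 and 1.50, and its nonsense-mediated-decay transcripts at 23.4 and 39.2. The leading model, Lilrb4a-206, took 38.6% and 47.6% of the gene's TPM, and 74.9% of its length lies in exons of Gm49339, a protein-coding gene annotated on the same strand at a gene TPM of 103 and 136. How reads were divided between these 2 genes is uncertain.

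Pirb (chromosome 7, 3711409 to 3720391), an inhibitory receptor that binds MHC class I molecules, had a gene TPM of 279 and 245 in replicates 1 and 2. Retained-intron models took 86.2% and 84.2%, while its single protein-coding model was at a TPM of 38.5 and 38.8. The leading model, Pirb-202, has 14 exons, and the 227 nt intron printed above, 7.77% of the model, is its one stretch outside coding exons. Pirb belongs to a family of receptor genes with closely similar sequences, so its count is uncertain to that extent.

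Ms4a6b and Ms4a4b, neighbours on chromosome 19 that encode membrane proteins of the MS4A family, were both members. Ms4a6b had a gene TPM of 143 and 93.5 in replicates 1 and 2, with shares of 76.4% and 78.5%. Ms4a4b had a gene TPM of 26.8 and 22.9, with shares of 85.2% and 82.1%. Their leading models hold introns of 1676 nt and 3024 nt, the latter the longest held intron among the members.

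Tap2 and Psmb8 lie side by side on chromosome 17 (34203527 to 34216321 and 34197721 to 34201454). Tap2 encodes a subunit of the transporter that loads peptides for MHC class I, and Psmb8 a catalytic subunit of the immunoproteasome. The gene TPM of Tap2 was 72.2 in replicate 1 and 38.6 in replicate 2, that of Psmb8 57.6 and 31.2, both lower in replicate 2. The share was 78.8% and 80.9% for Tap2 and 80.5% and 88.7% for Psmb8. Tap2 has 1 annotated retained-intron model, which alone took those shares, and a 162 nt intron, 6.33% of its length, is its one stretch outside coding exons. In exons of annotated genes on the other strand lay 26.3% of the Tap2 model and 30.5% of the leading Psmb8 model. The genes concerned, Gm15821 and Gm20496, were at a gene TPM of at most 2.21.

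Other members with roles in immunity or outside macrophages were less abundant. Il11ra1, the ligand-binding chain of an interleukin receptor, had a gene TPM of 15.8 and 20.1 in replicates 1 and 2 and shares of 79.9% and 90.0%. Ccl25, a chemokine, had a gene TPM of 19.0 and 25.6 and shares of 86.3% and 84.1%. The leading Ccl25 model is a single exon of 2549 nt that lies wholly outside the coding exons, so its reads cannot be told from those of unspliced RNA of this intron. Olfr56, named as an olfactory receptor, had a gene TPM of 10.9 and 10.4 with shares of 97.7% and 98.9%, all from 1 model, Olfr56-205. Of that model, 4.01% lies in exons of Ifi47, an interferon-inducible GTPase gene on the same strand at a gene TPM of 70.8 and 46.5. The second quantification, described below, gave Olfr56 lower shares, of 69.3% and 75.1%.

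Genes of RNA processing formed a further part of the set. Rbm5 (chromosome 9, 107740371 to 107770996), an RNA-binding protein that regulates alternative splicing, had a gene TPM of 72.0 and 77.6 in replicates 1 and 2. Its share was 79.1% and 82.7%, spread over 13 retained-intron models, of which the leading one took 23.9% and 27.1%. That model has 23 exons and holds introns 5 and 6 of 24, of 472 nt and 2783 nt. Arglu1, which acts in splicing and transcription, had a gene TPM of 26.5 and 27.4 with shares of 83.5% and 89.9%. Its 1 retained-intron model holds intron 2 of 3, 2280 nt long (chr8:8681468-8683747, minus strand), and its protein-coding model was at a TPM of 3.52 and 2.78.

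Rbm4b, another RNA-binding regulator of splicing, had a lower gene TPM of 16.7 and 20.6 but shares of 97.9% and 100%. Its leading model is a single exon of 5670 nt holding intron 3 of 3, and this intron, of 2696 nt, is the 1 held intron outside a coding region. Exons of Gm37206, an annotated locus on the other strand at a gene TPM of 0 and 0.770, cover 54.1% of that model. Zfp326, part of a complex that links transcript elongation to splicing, had a gene TPM of 15.3 and 20.3 and shares of 85.2% and 93.0%. Thoc1, a subunit of the THO complex of mRNA export on chromosome 18, had a gene TPM of 25.4 and 33.0, higher in replicate 2, with shares of 86.8% and 88.6%. Of its leading model, 21.6% lies in exons of Usp14 on the other strand, a gene at a TPM of 23.0 and 30.0, also higher in replicate 2.

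Ncl encodes nucleolin, a nucleolar protein of ribosome production. Its gene TPM was 25.4 in replicate 1 and 43.6 in replicate 2, and its share 78.8% and 85.7%. The leading model holds introns 9 and 10 of 13, of 492 nt and 190 nt, and took 64.2% and 79.6% of the gene's TPM. Fastk and Ptcd3, both tied to mitochondrial RNA or translation, had shares of 77.3% and 79.7%, and of 87.0% and 83.5%. The small nucleolar RNA gene Gm22486, on the same strand, covers 3.36% of the leading Ptcd3 model. It had a gene TPM of 765 and 163 from expected counts of 27 and 7. Gtf2a2, the small subunit of the general transcription factor TFIIA, had a gene TPM of 26.1 and 28.2 with shares of 76.4% and 81.0%.

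**Figure D3:**
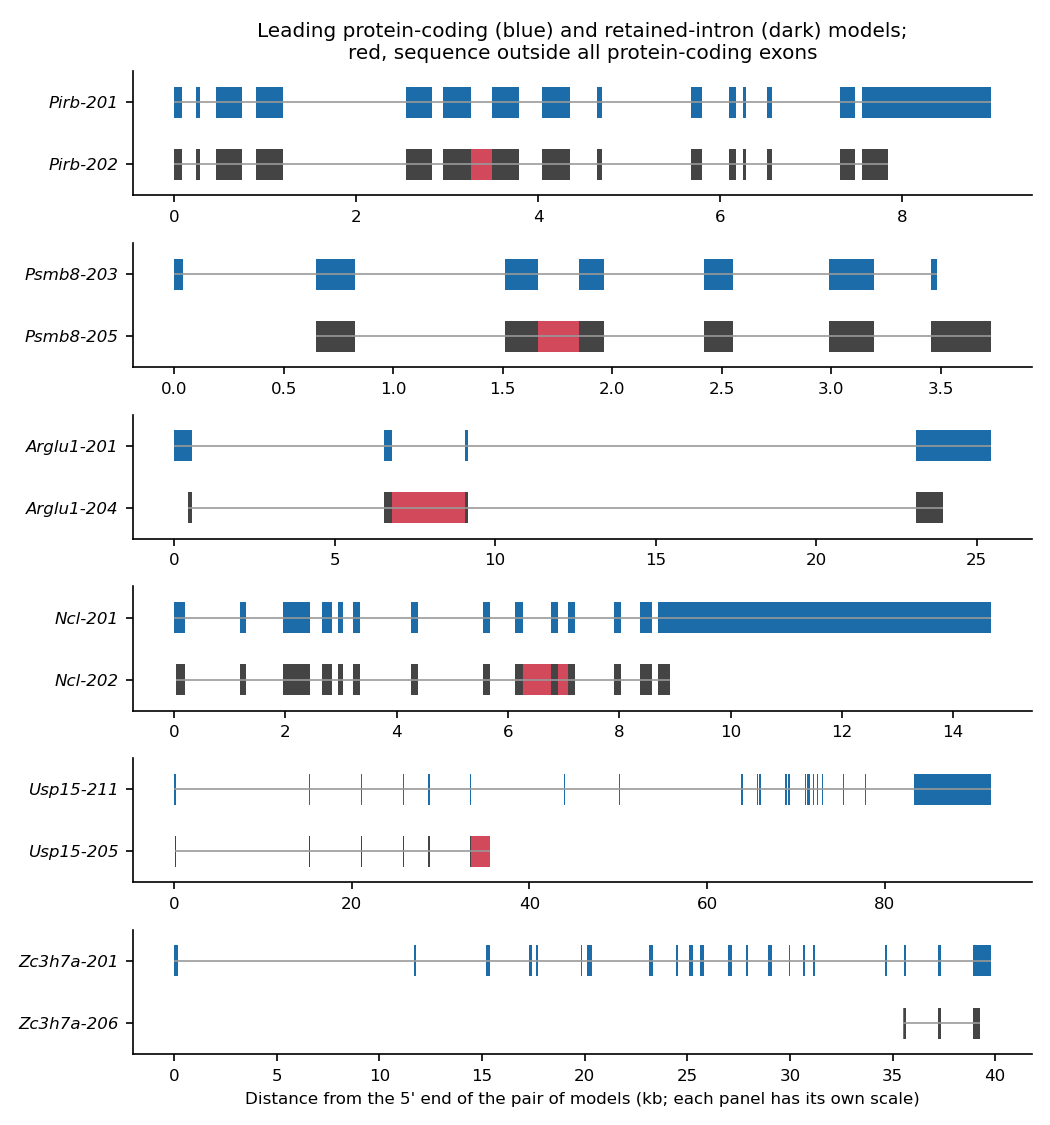
Exons (boxes) of the leading protein-coding model (blue, upper row of each panel) and the leading retained-intron model (dark, lower row) of 6 members, by distance in kb from the 5′ end of the pair, with sequence outside all protein-coding exons of the gene in red. Pirb, Psmb8, Arglu1 and Ncl hold whole introns inside an exon, the Usp15 model ends in an intron, and the 41 nt of such sequence in the Zc3h7a model are too short to be visible at this scale.

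The set was compared with 9 gene lists, which were chosen with earlier results of these data known. Of 61 expressed splicing regulators and RNA-binding proteins with a retained-intron transcript, 3 were members, namely Rbm5, Rbm4b and Arglu1. Of 28 genes of RNA ends, export and decay, Thoc1 was the 1 member, and of 39 interferon-stimulated genes Psmb8 and Tap2 were. The lists of spliceosome components (27 expressed genes), chromatin and transcription (54) and translation (32) held 0 members. So did those of Toll-like receptor signalling (25), macrophage lysosome and lineage genes (26) and genes with retained introns known from other studies (8). These counts stand beside the 1.86% of all such genes that the rule took. The median share over a list was 46.6% for spliceosome components and 45.8% for splicing regulators, against 30.3% over all 3110 genes. It was 47.8% for genes with retained introns known from other studies, 35.7% for RNA ends, export and decay and 33.9% for interferon-stimulated genes. For Toll-like receptor signalling it was 32.0%, for chromatin and transcription 31.9%, for translation 29.8% and for the macrophage list 18.7%. Ogt and Irf7, whose retained introns are known from other studies, were at 48.4% and 52.1%, and at 58.8% and 56.5%, in replicates 1 and 2.

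Genes of DNA replication and repair were among the members. Rfc2, a subunit of the clamp loader of replication, had a gene TPM of 60.8 and 43.2 in replicates 1 and 2 with shares of 88.5% and 86.5%. Atr, the checkpoint kinase that responds to stalled replication forks, had a gene TPM of 10.4 and 13.5 with shares of 75.8% and 81.3%. Its leading model holds introns 4 and 5 of 46, of 737 nt and 732 nt. Top3b, a topoisomerase, had shares of 78.5% and 80.1%, and Rpain, which carries replication protein A into the nucleus, had 86.8% and 82.2%. Mplkip, whose coding model has 1 intron, had a gene TPM of 17.3 and 17.1, and its single retained-intron model, which holds that intron of 1021 nt, took 80.9% and 89.2%.

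Members that act in ubiquitin removal, vesicle traffic and the cytoskeleton followed. Usp15, a deubiquitinase, had a gene TPM of 58.6 and 44.1 in replicates 1 and 2 and shares of 81.8% and 85.1%. Its leading model ends 2146 nt inside an intron and holds no whole intron, as do all 8 of its retained-intron models. Usp21, a deubiquitinase whose 83 nt intron is printed above, had a gene TPM of 20.7 and 19.4 and shares of 78.1% and 75.1%. Becn1, a core protein of the lipid kinase complex that starts autophagy, had a gene TPM of 32.9 and 28.7 and shares of 75.4% and 83.0%. Of its leading model, 48.0% lies in exons of Cntd1 on the other strand, a gene at a TPM of 0.620 and 0.130.

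Trappc4, of a vesicle tethering complex, was at 75.1% and 82.4%, and Mtm1, a phosphoinositide phosphatase, at 83.6% and 89.5%. Among cytoskeletal genes, the dynactin subunit Dctn6 was at 89.5% and 93.6% and the dynein light chain Dynlt1c at 95.8% and 97.8%. Tbce, a tubulin folding factor, was at 85.8% and 86.0%, and 37.1% of its leading model lies in exons of B3galnt2 on the other strand, which had a gene TPM of 5.23 and 7.34. Cep250, a centrosomal protein, was at 86.1% and 85.9%. Its leading model, of 352 nt, took 52.1% and 56.1% of the gene's TPM with expected counts of only 43.0 and 54.0. Tubgcp3, of the complex that nucleates microtubules, was at 85.2% and 77.4%, lower in replicate 2. Sept2 here is ENSMUSG00000026276.20, a septin gene at 82.8% and 89.9%. Its symbol is shared with ENSMUSG00000116048.1, whose exons cover 24.7% of the leading model on the same strand and which had a gene TPM of 26.1 and 31.5, so the division of reads between the pair is uncertain.

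Enzymes and transporters included the member of highest share. Slc27a1 (chromosome 8, 71568882 to 71587302), a fatty acid transport protein, had a gene TPM of 46.9 in replicate 1 and 39.7 in replicate 2, with shares of 99.8% and 100%. Its protein-coding transcripts were listed at a TPM of 0.100 and 0. Ddhd1, a phospholipase, had a gene TPM of 74.5 and 74.3 and shares of 82.5% and 89.7%. Dhps, which makes the hypusine residue of a translation factor, was at 82.8% and 89.3%, Phykpl, an enzyme of hydroxylysine breakdown, at 78.5% and 85.3%, and the exonuclease Myg1 at 76.7% and 78.4%. Exons of Pfdn5 on the same strand cover 20.8% of the leading Myg1 model. Those of Wdr83 on the other strand, at a gene TPM of 9.65 and 7.95, cover 10.7% of the leading Dhps model.

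Zc3h7a, a zinc-finger protein, ranked next after Lilrb4a in mean gene TPM, at 234 in replicate 1 and 302 in replicate 2, with shares of 75.1% and 77.2%. Its protein-coding transcripts were at a TPM of 44.2 and 49.0. The leading model, Zc3h7a-206, has 699 nt, of which 41 nt lie outside coding exons, and none of its 10 retained-intron models holds a whole intron. Gm21188 had a gene TPM of 73.7 and 113 with shares of 93.2% and 96.8%, Tmem132a 56.5 and 101 with 93.6% and 96.5%, and Ankrd17 64.4 and 71.1 with 80.5% and 82.3%. Of the leading Gm21188 model, 10.2% lies in exons of Gm31544, a pseudogene on the other strand at a gene TPM of 39.8 and 27.6. Tmem132a was higher in replicate 2, and 16.4% of its only retained-intron model lies in exons of Slc15a3 on the other strand, which had a gene TPM of 131 and 115. The remaining 12 members had gene TPM from 10.6 to 39.9. Those at shares of 90% or more in both libraries were 9030025P20Rik at 95.3% and 95.4%, Fam120b at 92.9% and 93.5%, and Spaca6, named for the sperm acrosome, at 97.4% and 100%. Tatdn3 was at 79.5% and 82.1%, Ccdc59 at 85.1% and 90.4%, Pibf1 at 79.8% and 80.5%, Grcc10 at 75.7% and 77.6%, and A230050P20Rik at 80.5% and 85.2%. Ankrd16, Vps9d1, Stk25 and Miip are described with the counts, the splice sites and the differences between libraries.

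The values just inside the threshold, by the lower of the 2 libraries, were 75.1% for Usp21, Zc3h7a and Trappc4 and 75.4% for Becn1. Just outside it were Gtpbp6 at 74.9%, Rmnd1 at 74.6% and Wdr11 at 74.5%.

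A second quantification of the same libraries, made straight from the reads, gave the members a median share of 82.9% ± 2.16 (SD, n = 2) against 34.2% ± 0.555 in the other 3055 genes. It uses the same reads and annotation and is no independent evidence. Of the 55 members, 39 were at 75% or more in both libraries there, 10 were at or above that value in 1 library and below it in the other, and 6 were below it in both. Of all 3110 genes, 2.89% were at or above it in both. All 55 members were at 50% or more in both libraries there, as were 653 of the 3055 other genes. The lowest were Becn1 at 53.9% and 56.9%, Gtf2a2 at 54.3% and 60.8%, Tap2 at 62.4% and 53.2%, Ccl25 at 70.9% and 70.5%, and Mtm1 at 67.6% and 74.8%. The highest were Dynlt1c at 98.4% and 99.7%, Lilrb4a at 97.8% and 98.5%, Tmem132a at 94.8% and 97.3%, Rbm4b at 93.6% and 97.2%, and 9030025P20Rik at 94.4% and 96.1%. The leading model was the same in both quantifications in 40 of 55 members and in 2298 of the 3055 other genes.

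Counts before division by length gave lower shares for many members. Retained-intron models took a median of 79.9% ± 1.57 of a member's expected counts (SD, n = 2) and 17.5% ± 0.908 in the other genes. Of the 55 members, 29 were at 75% or more by expected counts in both libraries, beside 2.48% of all 3110 genes. The leading retained-intron model was shorter than the leading protein-coding model in 30 members, and in 27 of these the count share was below the TPM share in both libraries, as in 2161 of 2357 such other genes. It was longer in 25 members, and in 17 of these the count share was above the TPM share in both libraries, as in 474 of 698 such other genes.

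In 3 members retained-intron models took under 50% of expected counts in a library. These were Zc3h7a at 44.0% and 49.0%, Atr at 48.7% and 55.7%, and Il11ra1 at 47.8% and 64.0%. The largest drop from TPM to counts was that of Rfc2, from 88.5% and 86.5% to 54.5% and 51.6%. Its leading model has 831 nt against 4995 nt for the leading protein-coding model. Ddhd1, with 604 nt against 9802 nt, fell to 52.8% and 60.2%, and Usp15, with 2840 nt against 11525 nt, to 52.4% and 56.7%. In the other direction, Ankrd16 had 81.4% and 81.1% by TPM and 92.7% and 93.1% by expected counts, with a leading model of 3643 nt against 1618 nt.

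**Figure D4:**
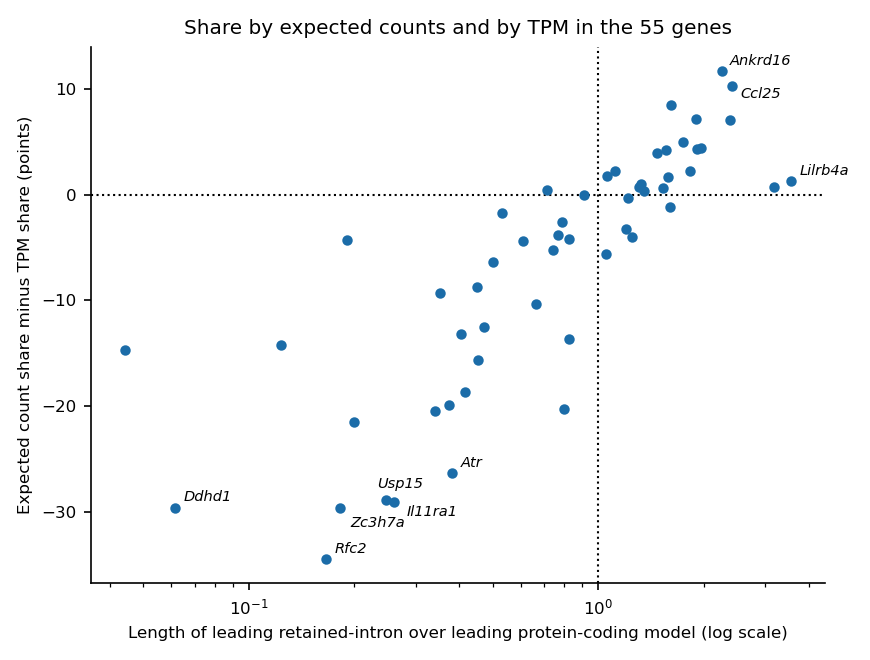
Difference between the retained-intron share of expected counts and of TPM (y axis, percentage points, mean of both libraries) against the length of the leading retained-intron model over that of the leading protein-coding model (x axis, log scale), 1 point per member. Points to the left of a length ratio of 1 lie mostly below 0, with Rfc2, Ddhd1 and Zc3h7a among the lowest, and Ankrd16 and Ccl25 are the highest on the right.

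The abundance was spread over several models in most members. Members had a median of 5 annotated retained-intron models against 2 in the other expressed genes, and 5 of 55 had only 1 such model against 895 of 3055. These 5 were Tmem132a, Tap2, Arglu1, Mplkip and Olfr56. The leading model alone reached 75% of the gene's TPM in both libraries in 7 members, the 5 just named with Ccdc59 and 9030025P20Rik. None of the 3055 other genes did, and a gene that does so meets the share threshold of the rule. The leading model reached 50% in 18 members, against 22 of the other genes. In Ankrd17, with 9 such models, the leading one took 15.6% and 17.4%.

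The leading model held at least 1 whole intron of a protein-coding transcript in 26 of 55 members and in 955 of 3055 other genes. In the other 29 members it held none. The longest stretch outside coding exons then lay at an end of the model in 28 of the 29, against 2063 of 2100 other genes whose leading model held none. It lay in the 5′ exon in 15 of the 29, against 692 of 2100, in the 3′ exon in 10, against 1089, and in single-exon models in 3, against 296. In Fam120b it lay in an inner exon. All annotated retained-intron models were also counted, of which members had a median of 5 and the other genes of 2. At least 1 model held a whole intron in 42 members and in 1550 of 3055 other genes, not adjusted for the number of models. The 13 members without such a model were Zc3h7a, Gm21188, Ddhd1, Rfc2, Usp15, Dctn6, Gtf2a2, Rpain, Ccl25, Tatdn3, Fam120b, Pibf1 and Olfr56.

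Some leading models carried little sequence outside coding exons. The median part of the leading model outside coding exons was 43.8% in members and 54.0% in the other genes. It was under 10% in 7 of 55 members and in 195 of 3055 other genes. The 7 members were Zc3h7a at 5.87%, Pirb at 7.77%, Tap2 at 6.33%, Dctn6 at 8.97%, Top3b at 1.37%, Il11ra1 at 8.60% and Tubgcp3 at 8.92%. In Zc3h7a, Rfc2, Dctn6, Top3b and Il11ra1 the longest stretch was under 100 nt, from 27 nt in Top3b to 90 nt in Rfc2. These 5 are 9.09% of the members, beside 9.23% of the other genes. Over most of its length such a model has the sequence of a coding transcript, and the files do not show how many of its reads fell on the part that differs.

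Part of the leading models overlapped other annotated genes. Exons of a gene on the other strand overlapped the leading model in 19 of 55 members and in 315 of 3055 other genes, and exons of another gene on the same strand in 8 and in 153. No test of these counts was made. Lilrb4a was the 1 member with over 50% of its leading model in same-strand exons. The part of these overlaps in the shares was not tested.

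The 26 members whose leading model holds whole introns had 31 such introns, and the other genes 1637. Introns with different ends were counted separately, so the 2 of Zfp326 share a donor site and differ in their acceptor site. Of the 31, 1 of Tmem132a, of 412 nt, also lies within an exon of another protein-coding transcript, as do 119 of the 1637. The median held intron was 737 nt long in members and 381 nt in the other genes, and the range in members ran from 75 nt in Phykpl to 3024 nt in Ms4a4b. A held intron is shorter than its model. The leading model had a median length of 2018 nt over all 55 members and 1389 nt over the 3055 other genes. Intron lengths were not adjusted for this. Held introns of at least 1000 nt were 12 of 31, against 383 of 1637, and those under 300 nt were 7 of 31, against 712 of 1637. Median GC content was 46.0% against 49.2%. When introns held by any retained-intron model were taken, the medians were 474 nt over 118 introns of members and 282 nt over 3688 of other genes.

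Of the 31 held introns, 30 interrupt the coding sequence, against 1418 of 1637 in the other genes, and that of Rbm4b lies in the 3′ untranslated part. A stop codon stands in frame within 29 of the 30, against 1287 of 1417 coding held introns of other genes, and the exception is the Usp21 intron. The stop begins at base 2 of the intron in Ankrd16, Ncl, Zfp326 and Ccdc59, and at base 258 in Fastk, the farthest. A length divisible by 3 was found in 10 of 31, against 553 of 1637. The first intron of the coding transcript was held in 2 cases, Fastk and Mplkip, against 249 of 1637.

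Splice sites were scored against position weight matrices built from 8619 introns held by annotated retained-intron transcripts, as log2 odds over equal base frequencies, so that higher scores are closer to the common sequence. The median donor score was 7.56 in members and 7.63 in the other genes. The median acceptor score was 8.24 against 8.91. Of the 31 introns, 29 begin with GT and end with AG, and 2 begin with GC, those of Vps9d1 and 9030025P20Rik, against 23 of 1637 in the other genes. The donor sites of lowest score are printed with that of Pirb, the highest, and of 9030025P20Rik, as 3 exon bases and 6 intron bases with the first 2 intron bases in capitals.
Vps9d1 intron 6 donor: acaGCatcc
Stk25 intron 5 donor: aagGTcctg
Rbm5 intron 6 donor: cagGTtgct
Atr intron 5 donor: agaGTatga
9030025P20Rik intron 7 donor: ctgGCaagt
Pirb intron 6 donor: cagGTaagt
Their scores were -6.51 for Vps9d1, 1.32 for Stk25, 2.88 for Rbm5, 3.14 for Atr, 3.99 for 9030025P20Rik and 12.27 for Pirb. Rbm5 intron 6 pairs its low donor score with an acceptor score of 14.21, the highest among the 31, and its acceptor is attgcttcttttttttacAGaaa, shown as 20 intron and 3 exon bases with the last 2 intron bases in capitals. The held introns of the members therefore ran from the lowest of these donor scores to that of Pirb, whose donor has the common bases of the site.

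**Figure D5:**
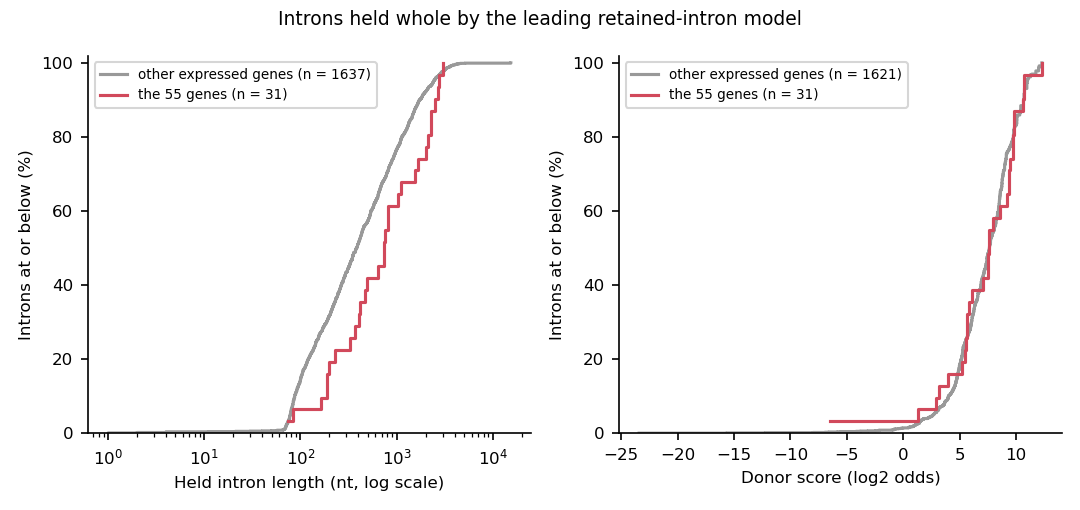
Cumulative share of held introns (y axis, percent) by length in nt on a log scale (left) and by donor score in log2 odds (right), for the 55 genes (red, n = 31) and the other expressed genes (grey). The red length curve lies to the right of the grey one, with medians of 737 and 381 nt, not adjusted for the length of the models. The donor score curves lie close together, with medians of 7.56 and 7.63.

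Between the libraries, no member's gene count differed by 2-fold or more. Log2 ratios of replicate 2 over replicate 1, computed from expected counts with TMM scaling, had a median of 0.03 and an SD of 0.32 over the 55 members, against a median of -0.01 and an SD of 0.43 over the 10198 genes whose mean count reached 100. Of those genes, 2.00% differed by at least 1 on this scale, and 0 of the 55 members did. The highest ratios were 0.78 for Tmem132a, 0.78 for Ncl and 0.73 for Lilrb4a. The lowest were -0.87 for Tap2, -0.78 for Psmb8 and -0.43 for Usp15. Each ratio sets 1 library against 1 other, so no p-value was computed.

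The share itself differed most between libraries in Miip, at 80.1% in replicate 1 and 95.7% in replicate 2. It was followed by Il11ra1 with a difference of 10.1 points, Vps9d1 with 9.51, Stk25 with 9.44 and Mplkip with 8.38, all higher in replicate 2. Their gene counts were between 244 and 1811 per library, with Miip at 362 and 282, and their gene TPM between 11.1 and 20.1. The largest difference the other way was that of Tubgcp3, whose share fell by 7.83 points from replicate 1 to replicate 2.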

How the data were processed

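Ribosome-depleted nucleoplasmic RNA of 2 libraries of 1 group was analysed. The deposited tables hold, per gene and per transcript, an expected count with a TPM, which the authors derived from alignments to the transcriptome, per the deposited notes. A further transcript table, the second quantification, holds the authors' estimated counts and TPM made straight from the reads. The notes name mm10 and GENCODE mouse release 21. Neither programs and versions nor strand use were given in the sources used here. Transcript types came from the deposited transcript names, and models and sequences from GENCODE.

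Shares are sums of retained-intron transcript TPM (or expected counts) over all transcripts of a gene. The leading model has the highest mean TPM. A held intron lies whole within one of its exons. With no genome at hand, splice-site matrices were built from introns held by annotated retained-intron transcripts, not from all coding introns as first planned. Donor sites took 3 exon and 6 intron bases, acceptor sites 20 intron and 3 exon bases, with 1 added per base count.

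Expected counts were rounded, and log2 ratios used TMM factors from edgeR 4.0.16 in R 4.3.3 on 14892 genes and a prior count of 0.5. DESeq2 1.42.0 size factors were an alternative. Entries naming no annotated gene (1.01% and 0.336% of expected counts) were left out. With 1 group, no test was made, and means ± SD cover only the spread between 2 libraries. On simulated counts with the share of 200 genes set to 0.9 among 3110 genes, 100% passed the share threshold. The counts were drawn per transcript, so this checks the calculation of shares only. It cannot test how reads are divided among overlapping models. Python 3.11.15, numpy 2.4.6, pandas 2.3.3 and matplotlib 3.10.9 were used.

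The members and lists were chosen with earlier results of these data known. Genes named in detail were the 12 of highest TPM, the 6 of highest share, the 4 nearest the threshold on each side (1 is not reported here), the 5 whose share differed most between libraries, the 5 lowest and 5 highest in the second quantification, those with the 3 shortest and 3 longest held introns and the 4 lowest donor scores, the 3 highest and lowest log2 ratios, and list members. Other members were named to account for all 55, and the grouping by role was made after their values were seen.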

Additional observations from a re-analysis of the deposited data

How the results depend on the processing

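The number of genes the rule takes depends on its settings. Instead of 55, it was 88 with shares from the second quantification (39 of the 55 among them), 114 with only retained-intron and protein-coding types in the denominator, 497 at a share of 0.5 and 10 at 0.9. With a gene TPM of at least 1 it was 134, above 0 it was 278, and at 50 or more it was 9. Shares of expected counts took 74 genes, 29 of them among the 55. Using 1 library took 72 genes without replicate 2 and 104 without replicate 1.

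The median TPM of protein-coding transcripts of the members was 1.76 in the second quantification, against 2.81. The median held intron was 474 nt over introns held by any retained-intron model, 784 nt over the longest of each gene, and 584 nt with leading models from the second quantification, against 737 nt. Over introns held by any model the median donor score was 7.53 and the median acceptor score 8.01. The cause of these shifts was not tested. The count of 0 members differing 2-fold between libraries was 0 under library totals, DESeq2 size factors, mean counts of at least 50, no minimum and the second quantification. No paired analysis was possible because the series has 1 group.

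The number of libraries (2) limits precision. How certain the shares are for models that differ from coding transcripts by few bases was not tested.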
